A study of Mus musculus with 67 samples.

Results

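Chromosome 13 was described in 67 single cells taken from mouse embryos of the 8-cell stage. It comprised every bin that both deposited tables assign to that chromosome, 597 of 13103 bins, of which 586 of 12836 held values. Summarised, these bins gave 117 of the 2397 autosomal windows of 1 Mb, from position 3000001 to 120000000 of chromosome 13 in the mouse genome build mm9. The chromosome was chosen for its losses in the same data, so the gains, losses and breaks below are a description and carry no test.

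The assay was scRepli-seq: the genome of 1 cell is amplified, sequenced at low depth and read as relative DNA copy number along the chromosomes. All embryos were BDF1, the name of a hybrid of the C57BL/6 and DBA/2 strains, and were kept in vitro in CZB medium. During the 4-cell stage they received either DMSO alone, the solvent, or aphidicolin at 75 ng/ml. The DMSO group held 20 cells of 3 embryos (4, 8 and 8 cells). The Aphidicolin group held 47 cells of 6 embryos, 8 from each of Aphidicolin 1 to 5 and 7 from Aphidicolin 6. Cells are called by their library number (cell 30) and embryos by treatment and number (Aphidicolin 1), and the embryo is the replicate. No untreated embryos without solvent entered the comparison, and the labels do not say which blastomeres are daughters of the same cell.

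Aphidicolin blocks the replicative DNA polymerases and at low dose slows replication forks, so that stretches of DNA can remain unreplicated when a cell enters mitosis. Mouse chromosomes carry their centromere at the proximal end, the low end of the coordinates. A break therefore leaves a proximal piece with the centromere and a distal piece without one, and at mitosis a piece can pass to the wrong daughter cell. If both daughters are then sequenced, the excess in one cell and the deficit in the other appear as opposite steps at the same position.

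Copies were taken as 2 at the median of the autosomes of each cell. A segment was called a gain above 0.32 and a loss below -0.42 on the log2 scale, with a minimum length of 10 Mb, and "near 0 copies" means a log2 value of -3 or less. A distal loss is a called loss that runs to the last window and starts after the first 10% of the chromosome. Recovered depth ran from 0.737 to 2.63 M reads per Aphidicolin cell and from 1.46 to 2.81 M per DMSO cell, with embryo means of 1.95 ± 0.095 M (SD, n = 6) and 2.19 ± 0.114 M (SD, n = 3). The log2 level of X minus that of the autosomes was -1.02 ± 0.07 over the 6 Aphidicolin embryos (SD) and -0.25 ± 0.05 over the 3 DMSO embryos (SD). These ranges did not overlap, so X number and treatment cannot be told apart in these embryos. All 67 cells carry the same batch name and the same collection window (G1 to early S) in the deposited metadata.

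Chromosome 13 was gained or lost, whole or in part, in 23 of 47 Aphidicolin cells (48.9%, exact 95% interval 34.1 to 63.9%). Over all cells and all 19 autosomes of the Aphidicolin group the called share was 41.7%. Among the 20 DMSO cells none was called (exact upper limit 16.8%), where the share over all autosomes was 3.16%. The intervals cover counting error only and treat cells of an embryo as independent. The median of chromosome 13 lay between 1.67 and 2.20 copies in the 20 DMSO cells, with cell 24 of DMSO 3 the lowest, and between 1.85 and 2.10 copies in the 24 Aphidicolin cells without a call. The called cells numbered 4 in Aphidicolin 1, 7 in Aphidicolin 2, 6 in Aphidicolin 3, 0 in Aphidicolin 4, 4 in Aphidicolin 5 and 2 in Aphidicolin 6. By embryo this was 48.5% ± 31.6 of cells (SD, n = 6), against 0% in each DMSO embryo.

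**Figure D1:**
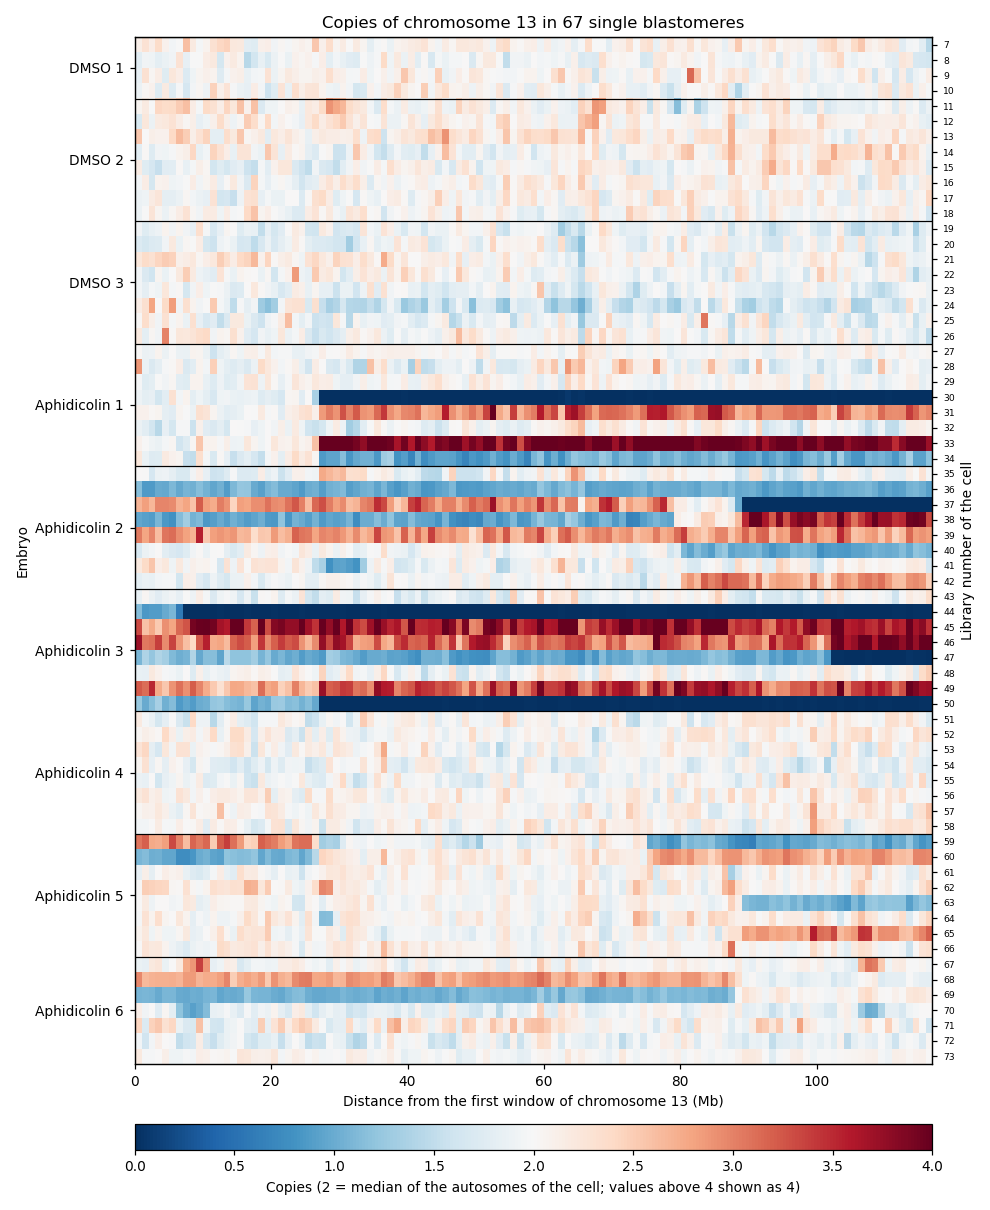
Copies of chromosome 13 in windows of 1 Mb (columns, distance from the first window in Mb) for each of the 67 cells (rows, library number on the right), grouped by embryo. White is 2 copies, blue fewer and red more, with values above 4 drawn as 4. No row of DMSO or of Aphidicolin 4 holds a called segment, although single DMSO windows lie as low as 1.02 copies (cell 24) and as high as 3.15 (cell 9). Rows of opposite colour that change at the same column lie within the same embryo in Aphidicolin 1, 2, 3, 5 and 6.

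The called cells held 31 events, 14 gains and 17 losses. Of these, 19 covered part of the chromosome and 12, in 8 cells, belonged to a chromosome called over at least 90% of its length with 1 sign. Gains alone were seen in 9 cells, losses alone in 10 and both in 4. The levels sat close to whole numbers of copies, with a median distance of 0.057 copies and at most 0.352. The weakest called gains stood at 0.49 on the log2 scale (cells 60 and 68) and the weakest losses at -0.85 (cells 41 and 63). Just outside the limit for a loss lay DMSO cell 24, at -0.39 (1.53 copies) from 31 to 81 Mb, and it was not called.

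Distal losses were called in 8 of 47 Aphidicolin cells (17.02%, exact 95% interval 7.65 to 30.8%), 2 in each of Aphidicolin 1, 2, 3 and 5. Over all cells and autosomes of the group the share with a distal loss was 14.1%, and the embryo mean for chromosome 13 was 16.7% ± 12.9 (SD, n = 6). The 20 DMSO cells held 0, which allows up to 16.8%. In cells 34, 40, 59 and 63 the distal piece stood near 1 copy, at 1.00, 1.01, 0.983 and 1.11 copies from 30, 83, 78 and 92 Mb onward. In cells 30, 37, 47 and 50 it stood near 0 copies, from 30, 92, 105 and 30 Mb onward. The 8 losses therefore fell into a group of 4 near 1 copy and a group of 4 near 0, with nothing between. Cell 44 also fell to near 0 copies up to the end of the chromosome. Its called segment starts at 13 Mb, where the 10-Mb minimum length places it, and the break fitted with its partner lies at 9.7 Mb. Both positions are inside the first 10% of the windows, so it is not counted as a distal loss.

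With cell 44, near-zero segments were found in 5 cells of 3 embryos (10.6%, exact 95% interval 3.55 to 23.1%), while 3.02% of cells and autosomes of the Aphidicolin group held one. Their log2 values were -8.24 in cell 30 (30 to 120 Mb), -9.17 in cell 37 (92 to 120 Mb), -7.35 in cell 44 (called from 13 to 120 Mb), -7.12 in cell 47 (105 to 120 Mb) and -7.48 in cell 50 (30 to 120 Mb). The level just proximal to each of these segments differed between cells. Cells 44, 47 and 50 held 0.977, 1.01 and 1.10 copies of the proximal piece, all below 2, whereas cells 30 and 37 stood near 2 copies there.

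Few reads remained inside the near-zero segments. Cell 30 had 270 reads over 89 whole windows, 0.477% of its median window of 636 reads. Cell 50 had 447 reads over 89 windows (0.737%), and cell 44 had 390 over 106 (0.709%). Cells 37 and 47, with the shortest segments, had 51 reads over 27 windows (0.264%) and 91 over 14 (0.723%). No single window inside the 5 segments held more than 29 reads. A level of 1 copy would give 50% of the median window, so these stretches lay far below 1 copy in every cell. Where the remaining reads came from was not tested.

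Nearly all events had an opposite event in the same embryo. Of the 31 events, 28 (90.3%) had an event of opposite sign in another cell of the embryo with at least 50% reciprocal overlap. Any cell of the embryo could be matched. Cell 49 was thus matched to cell 44, although its most opposite cell over the other autosomes was cell 50. This share was not set against that of other autosomes. The copies of the opposite events summed to a median of 3.89, with a range of 3.26 to 4.14, close to the 4 copies that a pair of cells would hold together.

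In Aphidicolin 1 all 4 called cells changed at 30 Mb. Proximal to it they stood at 1.86, 2.03, 2.05 and 1.91 copies (cells 30, 31, 33 and 34). Distal to it cell 30 held 0.0066 copies against 4.06 in cell 33, and cell 34 held 1.00 against 3.03 in cell 31. The 4 distal levels summed to 8.09 copies. The other cells of the embryo had no call.

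In Aphidicolin 2 cells 37 and 38 mirrored each other in 3 steps. From 3 to 82 Mb cell 37 held 2.95 copies and cell 38 0.961, between 82 and 92 Mb both stood near 2, and from 92 Mb onward cell 37 was near 0 while cell 38 held 3.69. Cell 37 thus carried a gain of the proximal piece together with a near-zero distal end. The distal loss of cell 40 (1.01 copies) was matched by a gain in cell 42 (2.86 copies), both from 83 Mb. Cells 36 and 39 were opposite over the whole chromosome, at 0.990 and 2.84 copies. The seventh called cell, cell 41, had a loss called from 28 to 38 Mb (1.11 copies) without a called opposite event. That call has the 10-Mb minimum length, and the profile of its pair with cell 35 gives a loss from 29.6 to 36.6 Mb.

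In Aphidicolin 3 all 6 called cells deviated along the whole chromosome. Cell 47 held 1.01 copies up to 105 Mb and 0.0144 beyond, and cell 46 held 3.13 and 4.11 copies over the same stretches. Cell 50 held 1.10 copies up to 30 Mb and 0.0112 beyond, against a single called segment of 3.25 copies in cell 49. In the profile of this pair cell 49 held 2.81 copies up to 29.8 Mb and 3.38 beyond. Cell 44 held 0.977 copies up to 9.6 Mb and 0.0121 beyond, against 2.77 and 3.69 in cell 45, as read from the profile of the pair. In each of these couples the cell with the loss was low on both sides of the break and the other cell was high on both sides.

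In Aphidicolin 5 cells 59 and 60 mirrored each other at both ends. Cell 59 held 3.03 copies up to 30 Mb and 0.983 from 78 Mb, and cell 60 held 1.04 and 2.81. The distal loss of cell 63 from 92 Mb (1.11 copies) was matched by cell 65 (2.87 copies). Aphidicolin 6 had no distal loss. There cell 69 lost the proximal part up to 91 Mb (1.06 copies) and cell 68 gained it up to 92 Mb (2.81 copies), and the distal end stood at 1.87 copies in cell 68 and 2.11 in cell 69.

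Summed over the cells of an embryo, chromosome 13 stayed near 2 copies a cell. The median window summed to 15.9, 15.4, 15.3, 16.2 and 16.2 copies in Aphidicolin 1 to 5, where 8 cells would hold 16, and to 13.8 in Aphidicolin 6, where 7 cells would hold 14. In DMSO 1, 2 and 3 it summed to 8.09, 16.5 and 15.4 copies, where 8, 16 and 16 would be held. Per cell the Aphidicolin embryos had 1.97 ± 0.048 copies (SD, n = 6) and the DMSO embryos 2.00 ± 0.071 (SD, n = 3), and the ranges overlapped. Within Aphidicolin 1 the sum ran from 14.7 to 17.8 copies between the 5th and 95th percentile of windows, although single cells there lay between 0 and 4 copies.

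**Figure D2:**
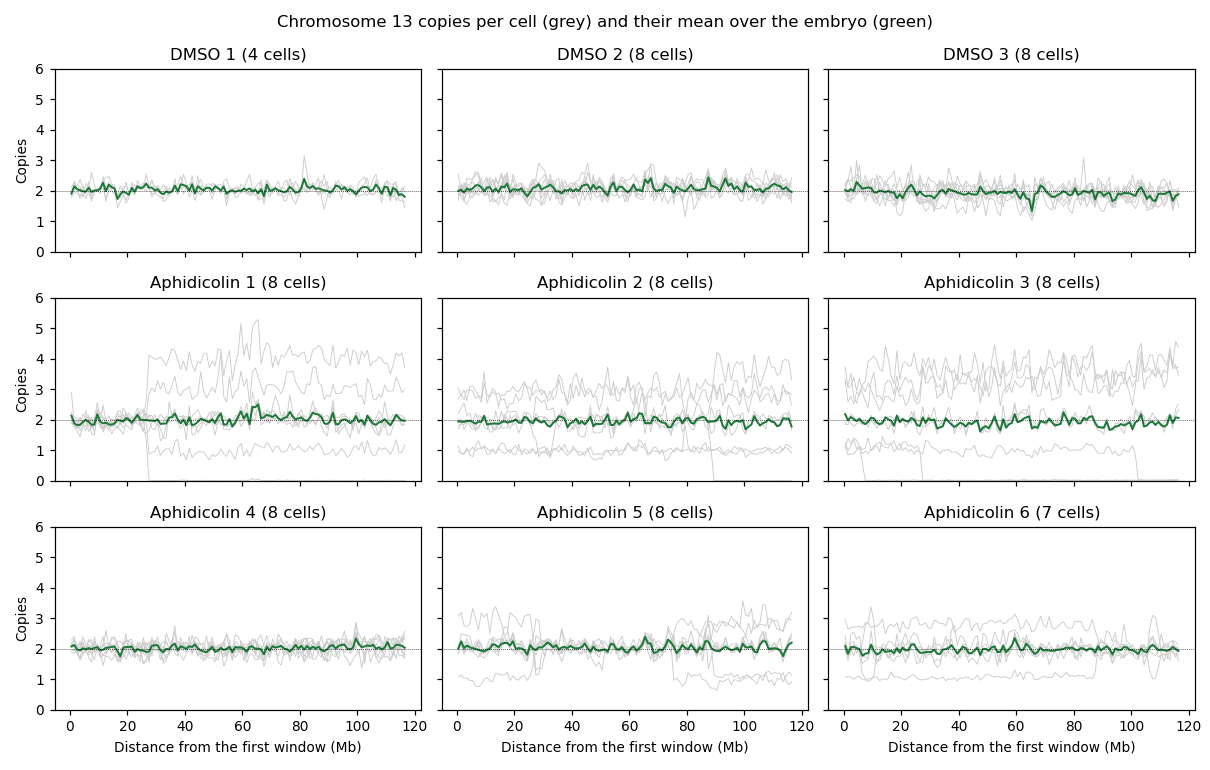
Copies of chromosome 13 along the chromosome (distance from the first window in Mb) for each cell (grey) and as the mean over the cells of an embryo (green), with 1 panel for each of the 9 embryos. The grey lines step between 0 and about 4 copies in Aphidicolin 1, 2 and 3, while the green mean stays near 2 copies a cell in all 9 panels.

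To place partners without using chromosome 13, each cell was matched to the cell of its embryo with the lowest correlation over the other 18 autosomes. In the Aphidicolin group 21 pairs were mutual, with Pearson's r between -0.84 and -0.15. Of these 21 pairs, 14 in 5 embryos also held opposite segments on chromosome 13 (defined below), and 7 held none, among them the 4 pairs of Aphidicolin 4. Such pairs held 42 of all 47 Aphidicolin cells. Among the 23 cells with a chromosome 13 call the share was similar, with 21 in such a pair. The remaining 2 were cells 36 and 39, with opposite whole-chromosome events on chromosome 13 and r = 0.02 over the other autosomes. Each had calls on 3 other autosomes, and whether those were opposite between the cells was not tested. Of the 62 pairs of cells within the DMSO embryos, 0 differed by more than 0.5 copies from the pair mean over a stretch of at least 2 Mb, and the lowest r was -0.09. The correlations are across windows of a pair of libraries and are given as descriptions.

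**Figure D3:**
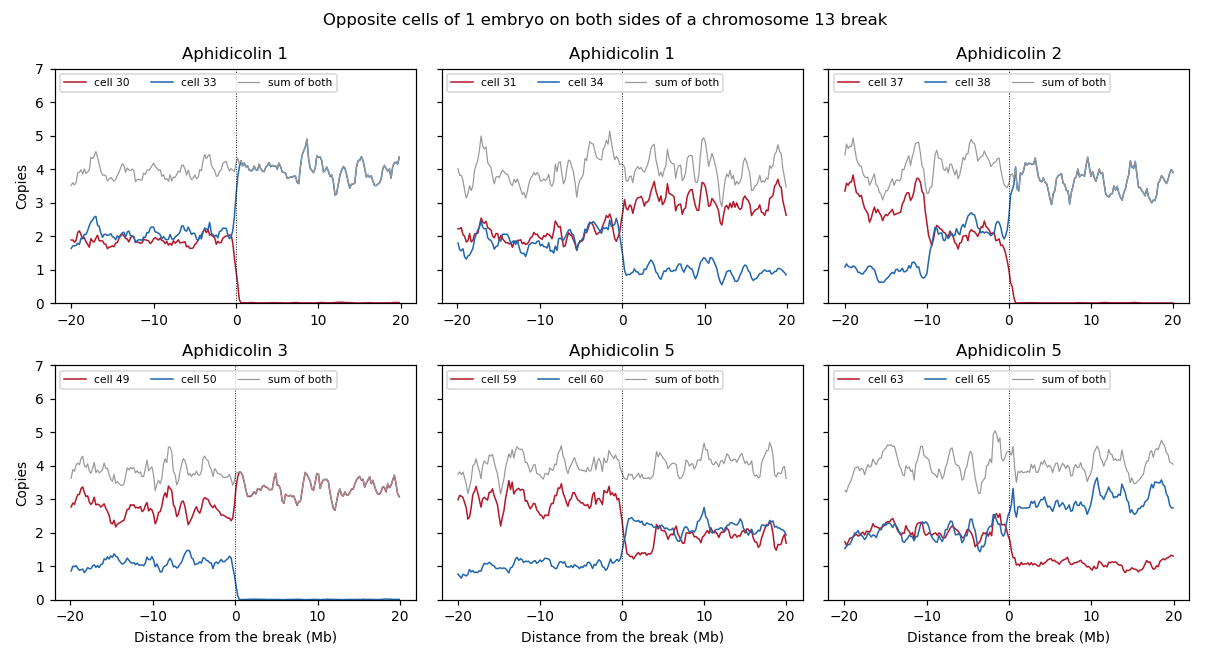
Copies of chromosome 13 in 6 pairs of opposite cells (red and blue) and their sum (grey) within 20 Mb of a break (dotted line), from values at 200-kb steps. In each pair the red and blue lines step in opposite directions at the dotted line. The sum is near 4 copies on both sides in 4 pairs. It falls at the break from 3.91 to 3.40 copies in cells 49 and 50 and from 4.17 to 3.72 in cells 37 and 38.

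The deviation of each cell from the mean of its pair was then segmented with a minimum length of 2 Mb in place of 10 Mb. These deviations mirror each other by construction, so a change in 1 cell alone could also pass. In every opposite segment found, 1 cell stood above 2 copies and the other below. With cells 36 and 39 counted as a pair, 21 opposite segments were found on chromosome 13, of which 6 were shorter than 10 Mb, and each segment's copies summed over the pair to between 3.40 and 4.24 (median 3.91). Cell 41 had its counterpart in cell 35, with 0.918 against 2.56 copies from 29.6 to 36.6 Mb. Cells 62 and 64, neither of which had a call, held 3.08 and 1.16 copies from 29.6 to 32.2 Mb. Cells 67 and 70 were opposite in 2 strips, with 2.92 against 1.00 copies from 9.4 to 14 Mb and 3.06 against 1.02 from 109.4 to 112.6 Mb. The shortest strip separated cells 61 (1.20 copies) and 66 (3.02 copies) from 89.6 to 91.6 Mb, a length of 2 Mb that the minimum sets, and its fitted edges lie at 90 and 91.4 Mb. Aphidicolin 5 and 6 therefore held small opposite strips in 6 cells that had no call at the 10-Mb minimum.

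The pair profiles placed 22 breaks. When the break was fitted in each cell of a pair alone, the positions differed by a median of 0.2 Mb and by at most 0.7 Mb. Joined within 2 Mb, the 22 breaks fell on 11 sites, of which 3 held breaks of more than 1 embryo. In single cells with a 10-Mb minimum 2 such sites were found, at 28 to 30 Mb with breaks in 8 cells of 4 embryos (28 Mb being the edge of the call of minimum length in cell 41) and at 91 to 92 Mb with breaks in 6 cells of 3 embryos.

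The site near 29.6 Mb was met in 6 pairs of Aphidicolin 1, 2, 3 and 5. The fitted breaks were at 29.5 Mb in cells 59 and 60, at 29.6 Mb in cells 35 and 41, at 29.7 Mb in cells 30 and 33, and at 29.8 Mb in cells 31 and 34, cells 49 and 50, and cells 62 and 64. The 6 approximate 95% intervals all held the stretch from 29.6 to 29.7 Mb, the narrowest being 29.6 to 29.7 Mb in cells 30 and 33 and the widest 29.1 to 29.8 Mb in cells 59 and 60. From values without removal of the common profile the breaks lay between 29.5 and 29.8 Mb as well. The same position bounded different changes. It was the start of a change that ran to the end of the chromosome in cells 30, 31, 33 and 34, the end of a change of the proximal piece in cells 59 and 60, a step between unequal imbalances in cells 49 and 50, and the proximal edge of strips of 7 and 2.6 Mb in cells 35 and 41 and cells 62 and 64.

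The site near 91 Mb held 5 breaks of 4 pairs in Aphidicolin 2, 5 and 6. They were at 91.3 Mb in cells 68 and 69 (interval 91.1 to 91.4), at 91.5 Mb in cells 37 and 38 (91.4 to 91.7), at 91.8 Mb in cells 63 and 65 (91.7 to 92) and at 90 and 91.4 Mb for the edges of the strip in cells 61 and 66. Unlike the site near 29.6 Mb, no single position lay inside all 5 intervals, and the breaks spread over 1.8 Mb. Here too the changed side varied, with the distal side changed in cells 37, 38, 63 and 65 and the proximal side in cells 68 and 69.

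The third position met in several embryos was at 9.4 Mb in cells 67 and 70 of Aphidicolin 6 and at 9.7 Mb in cells 44 and 45 of Aphidicolin 3. The breaks near 82 Mb were both of Aphidicolin 2, at 81.7 Mb in cells 37 and 38 (interval 81.5 to 82) and at 83.1 Mb in cells 40 and 42 (82.8 to 83.3). These intervals did not overlap, so the pairs of this embryo broke at positions that the data separate. Breaks at 13.9, 32.2, 36.6, 78.2, 105, 109.4 and 112.5 Mb were each met in 1 pair.

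**Figure D4:**
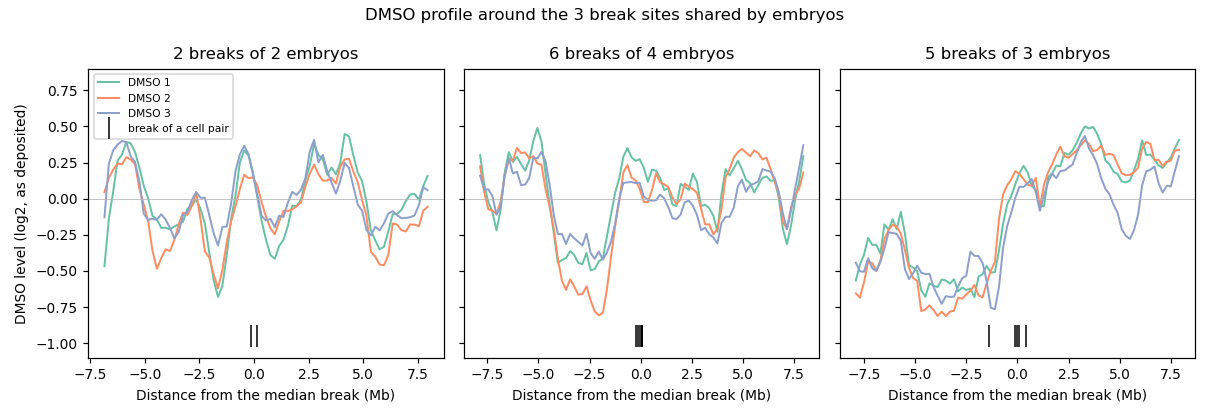
Level of the DMSO embryos (log2 as deposited, median over the cells of each embryo) within 8 Mb of the 3 break sites met in more than 1 embryo, as distance from the median break, with the breaks of single pairs as black ticks. From left to right the sites are those near 9.5, 29.7 and 91.4 Mb. The 3 DMSO lines rise from the proximal to the distal side at the middle and right sites, more at the right one. At the middle site the rise ends proximal to the ticks, and at the left site the lines fall across the ticks. At the right site most of the rise lies between the most proximal tick and the others.

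The DMSO cells give the local profile at these positions in cells without an event. The step there was measured as the mean level from 0.5 to 2.5 Mb distal to a break minus that over the same distance proximal to it, on the log2 scale. Over chromosome 13 the median size of this step was 0.18 and over all autosomes 0.23. At the 6 breaks near 29.6 Mb the step was 0.27 to 0.36, with 0.17 to 0.30 in DMSO 1, 0.42 to 0.53 in DMSO 2 and 0.15 to 0.21 in DMSO 3. By this measure all 3 DMSO embryos rose from the proximal to the distal side, DMSO 2 the most. The rise itself lay proximal to the fitted breaks. Over all DMSO cells the level went from -0.49 at 28.1 Mb to 0.23 at 29.1 Mb, then fell to 0.002 at 29.9 Mb.

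At the 5 breaks near 91 Mb the step was larger, 0.56 to 0.70, and again positive in each DMSO embryo (0.53 to 0.68, 0.53 to 0.83 and 0.56 to 0.62). By size the median of these steps stood at percentile 95.8 of all positions on chromosome 13 and 89.4 of all autosomes, against 73.4 and 58.3 at the site near 29.6 Mb. Near 91 Mb the level over all DMSO cells rose from -0.50 at 90.3 Mb to 0.08 at 91.1 Mb. It stood at 0.10 at 91.3 Mb and 0.13 at 91.7 Mb. Most of this rise thus lay proximal to the breaks at 91.3 to 91.8 Mb and distal to the break at 90 Mb. At 9.4 and 9.7 Mb the step was 0.14 and 0.12, smaller than the median of the chromosome. Closer to these 2 breaks the level over all DMSO cells fell, from 0.26 at 9.1 Mb to -0.26 at 10.5 Mb. The breaks near 82 Mb had negative steps of -0.12 and -0.24, and those at 78.2 and 105 Mb had -0.33 and -0.21.

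Over all 22 breaks the median size of the DMSO step was 0.29, with 16 above the median of chromosome 13 and 15 higher on the distal side. The step leaves out the 0.5 Mb next to a break on each side. Counted by site, 6 of 11 lay above that median. Since 11 of the 22 breaks lie at the sites near 29.6 and 91 Mb, they share their local profile and are not independent of each other. The level itself was below the chromosome's median of 0.05 at 6 of the 22 breaks, and near 29.6 Mb it was 0.10. Whether this profile reflects replication timing was not tested.

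Of the 19 autosomes 13 are longer than chromosome 13. The number of Aphidicolin cells with a call (23) was exceeded by 4 autosomes, the number with a distal loss (8) by 3, namely chromosomes 2, 3 and 11 with 12, 13 and 9 cells, and the number of breaks (24) by 5. The median autosome had 18 called cells, 7 cells with a distal loss and 20 breaks. Near-zero segments were the exception, with 5 on chromosome 13, 3 on each of chromosomes 3, 9 and 12, and a median of 1. Losses covered 17.9% and gains 17.8% of the windows of chromosome 13 over the Aphidicolin cells, against 12.7% and 12.5% for the median autosome, with 2 and 1 autosomes above chromosome 13. Of the 5 near-zero segments 3 came from Aphidicolin 3, and without that embryo 2 remained. No test was made of these ranks, because chromosome 13 was chosen for its losses.

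**Figure D5:**
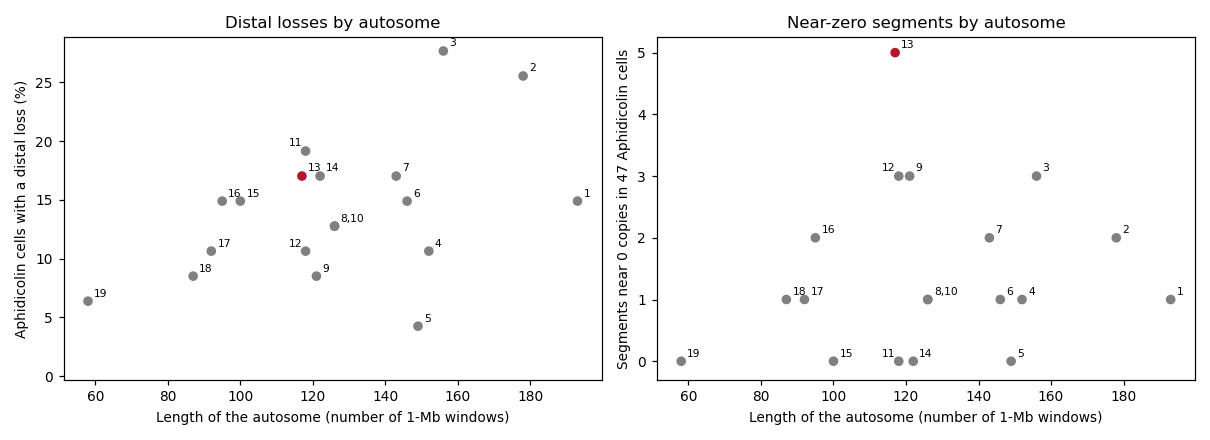
Share of the 47 Aphidicolin cells with a distal loss (left, %) and number of segments near 0 copies (right) for each autosome, against its length in windows of 1 Mb, with chromosome 13 in red. Chromosome 13 lies within the other autosomes on the left (17.02%) and above them on the right (5 segments).

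Cells with a distal loss of chromosome 13 were also aberrant elsewhere. Of the other 18 autosomes a median of 9 (4 to 17) carried a call in the 8 cells with a distal loss, against 7 (0 to 16) in the other 39 Aphidicolin cells and 0.5 (0 to 2) in the DMSO cells. Their depth was similar, with medians of 1.91 and 2.00 M reads, although the shallowest cell of the series (0.737 M) was among the 8. The authors' noise score had a median of 0.777 in these 8 cells, 0.672 in the other Aphidicolin cells and 0.691 in DMSO. The part of depth or noise in the calls was not tested.

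The choice of chromosome 13 did not use the weight of the common profile. This weight is the slope of a cell's steps between neighbouring windows on those of the profile that the other cells share. It was computed on chromosome 13 itself, so the near-zero segments behind the choice can enter it. In cells 30, 44 and 50 these segments held 270, 390 and 447 reads over 89, 106 and 89 windows, so steps inside them rest on few reads. No alternative left out all of these segments, and their part in the weights and the permutation test was not tested. A weight of 1 means steps as large as in the shared profile. By embryo it was 0.665, 0.633, 0.884, 1.12, 0.921 and 0.422 in Aphidicolin 1 to 6 and 1.20, 1.24 and 0.927 in DMSO 1 to 3. In 5 of 6 Aphidicolin embryos it was below all DMSO embryos, the exception being Aphidicolin 4. The means were 0.774 ± 0.249 (SD, n = 6) and 1.12 ± 0.168 (SD, n = 3), a difference of -0.345 (exact two-sided permutation test, p = 0.0714), where 0.0119 is the smallest p that the 84 splits can give. The difference therefore did not pass 0.05. Left out in turn, Aphidicolin 4 was the embryo whose omission changed this, to a difference of -0.415 with an exact permutation p of 0.0357. Within the Aphidicolin group the median weight was 0.892 in cells with a chromosome 13 call and 0.968 in cells without.

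Mean log2 levels of the embryos were also compared window by window with limma over all 2397 autosomal windows, as a background, since chromosome 13 was chosen on this contrast. After Benjamini-Hochberg adjustment 0% of all windows and 0 of the 117 on chromosome 13 passed 0.05 (lowest adjusted p in limma 0.661). At an unadjusted p under 0.05 the share over all windows was 5.88%, 141 windows, of which 1 lay on chromosome 13. That window, from 9 to 10 Mb, was lower in Aphidicolin by -0.22 ± 0.08 (SE). The median difference between treatments was -0.48 over the windows of chromosome 13 and -0.12 over all autosomal windows, and -0.23 on chromosome 13 without Aphidicolin 3, the embryo with 3 near-zero segments. Near-zero segments enter these log2 means at -7.12 to -9.17, whereas in copies the embryo means of chromosome 13 were 1.97 and 2.00. With single cells and the embryo as a random block limma called 1 window of all autosomes and 0 on chromosome 13.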

How the data were processed

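The deposited tables hold log2 values per cell, set by the authors relative to the median of each cell, at steps of 200 kb. Per the submitters' processing notes the build was mm9, while aligner and read filters are not stated there. The deposited metadata give a noise score and pass or filter marks (score of 1 or 0) per cell, and columns of other kinds (embryo, batch and collection window), per the file headers. No cell was marked as filtered. In each cell 100% of values turned back into whole reads, within 0.01 reads, when bins 5 steps apart shared 1 median, so bins were treated as overlapping 1-Mb windows. Bins without reads in a cell were set to 0.5 reads.

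Window medians (at least 3 bins) were corrected for a common profile (average of the DMSO and Aphidicolin median profiles) by Huber regression. Change points were placed by penalised least squares (penalty factor 4 on noise variance and log window number, minimum 10 Mb), and neighbours within 0.35 were merged. Pair profiles used the deviation of a cell from the mean of its pair at 200-kb bins (minimum 2 Mb, call past 0.5 copies), with breaks fitted on a 100-kb grid, counting 5 overlapping bins as 1 observation in the interval. This pair analysis was added after seeing the data. Counting error at the median depth was 0.05 (log2), and amplified reads are not independent molecules. Embryos were the unit of the exact permutation test and of limma 3.58.1 (R 4.3.3), and other steps ran in Python 3.11.15 with numpy 2.4.6, scipy 1.17.1 and pandas 2.3.3. The single-cell segmentation was tested with known steps added to DMSO cells, and the limma fit on simulated data. These tests did not cover the pair profiles, the break fit or the other steps. The cells named were those with a near-zero segment or a distal loss and their partners, the sites named were those met in more than 1 embryo, and further cells and positions were named after their values were seen. The chromosome, the measures and the break positions were chosen with earlier results of these data known. Alternatives covered the profile correction, segment length, penalty, call limits, merging, window summary and each embryo left out. Genes and sequences at the breaks were not analysed here, since no mm9 annotation was used. P-values measure the spread between these embryos, whose litters are not given.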

Additional observations from a re-analysis of the deposited data

Results flagged for a closer look

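Aphidicolin 3 held 3 near-zero segments on chromosome 13 (cells 44, 47 and 50), far from the other Aphidicolin embryos, which held 1, 1, 0, 0 and 0. This is a description without a test, since chromosome 13 was chosen for such segments. The breaks fitted with the partner cells lie at 9.7, 105 and 29.8 Mb.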

How the results depend on the processing

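The share of cells with a distal loss (16.7% against 0%) and the 5 near-zero segments were the same under all alternatives that kept every embryo, and so were the calls of 23 cells except with a 5-Mb minimum length (25 cells) and without the profile correction (34 cells). Without that correction 13 events were also called in DMSO cells, the difference in the share of cells called was 13.4 points (71.7% against 58.3%), 6 break sites were met in more than 1 embryo, and 62% of events had an opposite event. Of such sites, 2 in the calls as reported, 4 were found with a minimum length of 5 Mb, and 3 with 15 Mb, with breaks joined within 5 Mb, and from paired cells. With each embryo left out in turn the share called was 40.7 to 58.2%, the share with a distal loss 15 to 20%, the near-zero segments 2 to 5 (2 without Aphidicolin 3), the sites 2 each time, the share of opposite events 88 to 95.2%, the difference in profile weight -0.442 to -0.275 (exact permutation p 0.0357 to 0.143) and the limma calls on chromosome 13 0 each time. Other settings of the profile weight gave exact permutation p-values of 0.0714 to 0.107. No paired analysis was possible because the labels give the treatments no common replicate numbers. Segments could not be called below the chosen minimum of 10 Mb in single cells and 2 Mb in pairs, and the calls of cells 41 and 44 and the strip of cells 61 and 66 were stretched to it. DMSO shares rest on 20 cells of 3 embryos, and partners are by profile, since the labels give no lineage.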
